A study of Drosophila melanogaster with 6 samples.

Results

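The genes polyhomeotic-proximal (ph-p, CG18412) and polyhomeotic-distal (ph-d, CG3895) stand in tandem on the X chromosome of Drosophila melanogaster. Their region was taken as the GAGA factor (GAF) peaks on X whose midpoint fell from 2010000 to 2050000 on FlyBase release 5, a window of 40 kb. The rule used position and no measured value, but the region was named with earlier results of these data known. The window held 7 of the 11713 peaks in the authors' list, of which 7429 lay on the chromosome arms and 1372 on X. The 200 kb on each side, with 33 peaks to the left (lower coordinates) and 29 to the right, served as the local reference.

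GAF is a DNA-binding protein, encoded by Trl, that recognises GA-rich sequence, keeps promoters and enhancers accessible and is found at many Polycomb response elements. Those elements are DNA stretches at which Polycomb group complexes are held on their target genes. Both ph genes encode subunits of Polycomb repressive complex 1, the complex that compacts chromatin and ubiquitylates histone H2A. The locus is itself a known target of Polycomb group proteins, so the genes that build the complex are also under its control.

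Peaks came from chromatin immunoprecipitation and sequencing (ChIP-seq) of whole embryos aged 8 to 16 h, cross-linked in 1.8% formaldehyde for 15 min. There were 3 libraries of GAF ChIP DNA, made with the rabbit polyclonal antibody KW3-Trl-D2, and 3 input libraries, in which the chromatin was sequenced with no antibody step. ChIP and input embryos shared the strain Y cn bw sp. Its genotype per the labels had y[1] and oc[R3.2] in the first part. The second part had Gr22b[1], Gr22d[1], cn[1] and CG33964[R4.2] together with bw[1] and sp[1], and the third had LysC[1] and lab[R4.2], followed by MstProx[1], GstD5[1] and Rh6[1]. A whole-embryo sample mixes all cell types, so a peak does not tell in which cells GAF was bound.

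The authors deposited 1 peak list for all 6 libraries, which gives where each peak lies and how it scored and holds no value per library. Every value given here is therefore a single measurement without replicate error. No test between samples was possible, and the depth is unknown. The score is the authors' own value, used only to describe and rank peaks within the list. Its scale is not given in the sources used here. Over the arms it ran from 6.33 to 2174.57 with a median of 68.86. A peak is called strong below if its score was at or above 384.86, the bound of the highest 25% of arm peaks. It is called broad if its width was at or above 1699.6 bp, the bound of the widest 10%.

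In a gene table of release 6, a later build that served only for names and order, ph-d and ph-p are direct neighbours. On the side of ph-d follow csw, which encodes a tyrosine phosphatase of receptor signalling, Unc-76, which encodes an adaptor of axonal transport, and the less described CG16903, CG4025 and CG4045. On the side of ph-p follow D2hgdh, Pgd (an enzyme of the pentose phosphate pathway), bcn92, wapl (which encodes a factor that releases cohesin from chromatin) and Cyp4d1 (a cytochrome P450 gene). The peak list names no genes. A release 5 annotation was not used here, so no peak below is assigned to a promoter, an exon or an intron of ph-p, ph-d or a neighbour.

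Split at gaps of over 5 kb, GAF peaks at the polyhomeotic genes formed 2 groups of 3 peaks and a weak single peak. The 5 kb bound lay close to the median gap between neighbouring arm peaks, 4885 bp, and was not varied. Each group had 1 dominant broad peak, and the single peak lay to the right. The second group also held another strong peak, of 501.9, so its dominant peak stood out less than that of the first group. Without peaks below the list's median score of 64.7, the first group would keep only its dominant peak. The dominant peaks had nearly the same score and width. Together they carried 67.1% of the summed score of the window and 56.1% of its covered bases.

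**Figure D1:**
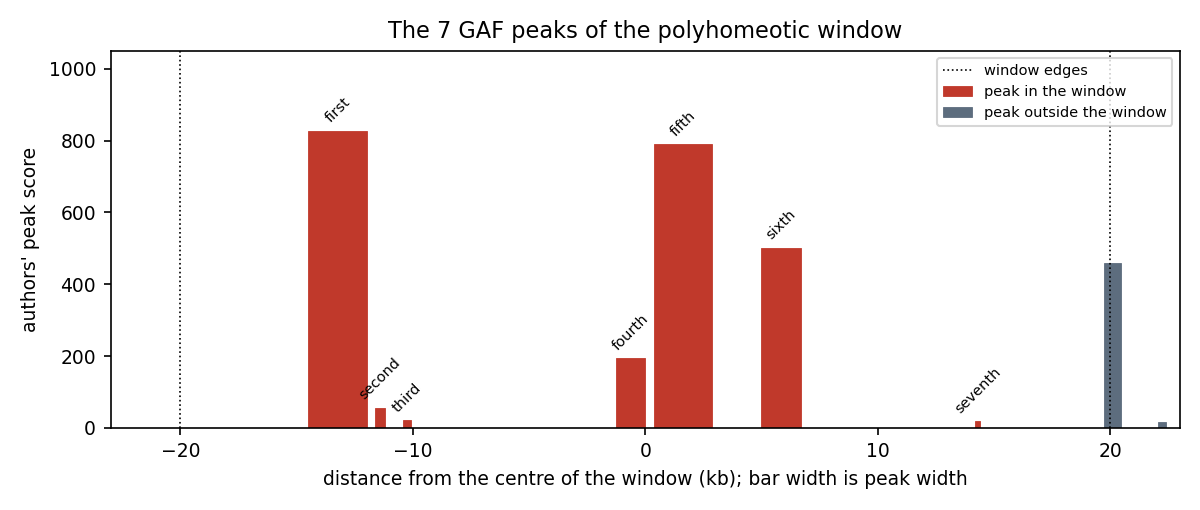
The 7 GAF peaks of the polyhomeotic window (red) and the nearest peaks outside it (grey), by distance from the centre of the window in kb, with the authors' score as bar height and the peak width as bar width. The first and the fifth peak reach 827.13 and 788.99, the sixth reaches 501.9, and the other 4 lie at or below 194.33.

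The first group ran from X 2015504 to 2019934 and spanned 4431 bp. Its first peak, X 2015504 to 2018043, had the highest score of the window, 827.13, and the greatest width, 2540 bp. It ranked 803 of 7429 arm peaks by score and 320 by width, so it stood further up in width than in score. On X it ranked 126 by score and 48 by width, and in the whole list 861 and 336.

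Both other peaks of this group were narrow and weak. The second, X 2018371 to 2018810, scored 55.85 at a width of 440 bp and began 327 bp after the end of the first. It ranked 3963 of the arm peaks by score and 4436 by width. The third, X 2019571 to 2019934, scored 21.31 at 364 bp and lay a further 760 bp on. Its arm ranks were 5220 by score and 5280 by width. Both thus scored below the arm median, at the side of a peak of the upper range.

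The second group ran from X 2028764 to 2036688, over 7925 bp, and its 3 peaks all scored above the arm median. The fourth peak of the window, X 2028764 to 2029973, scored 194.33 at 1210 bp, with arm ranks of 2612 by score and 1320 by width. The fifth, X 2030369 to 2032869, followed after 395 bp and scored 788.99 at 2501 bp, with arm ranks of 870 and 330. The sixth, X 2035000 to 2036688, lay 2130 bp further and scored 501.9 at 1689 bp, with arm ranks of 1451 and 752. The summed score of this group was 1485.22, against 904.29 in the first group.

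The seventh peak, X 2044188 to 2044425, stood alone, 7499 bp after the sixth. It was the weakest and narrowest of the window, with a score of 18.7 and a width of 238 bp, and ranked 5488 by score and 6897 by width on the arms. In the whole list its ranks were 8705 and 10740. By order within the window, score and width gave the same ranks from 1 to 7.

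Midpoints of the first and the fifth peak, the dominant ones, were 14845.5 bp apart, with 12325 bp between their edges. Their scores differed by 38.14 and their widths by 39 bp, ratios of 0.954 and 0.985. The list gives no error for either value, so it cannot be said whether the first was truly the stronger. The ph genes are a tandem duplication. How reads that match both copies were placed is not given in the sources used here, so the scores of the peaks may not be separate measurements, and this was not tested.

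The smaller peaks were placed differently around the dominant ones. In the first group both lay to the right, with midpoints 1817 and 2979 bp from that of the first peak. In the second group the fourth peak lay to the left, 2250.5 bp from the fifth, and the sixth lay to the right at 4225 bp. When the first group was shifted by 14845.5 bp onto the second, neither of its 2 small peaks overlapped a peak there, and the remaining gaps were 219.5 and 346.5 bp. Peaks covered 22.5% of the window, so a lack of overlap for 2 narrow peaks says little about the layout.

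Stretches without a peak separated the groups from each other and from the left flank. Between the third and the fourth peak 8829 bp were free of peaks, and 40.2% of the 7423 gaps between neighbouring arm peaks were at least as long (95% Wilson interval 39.1 to 41.3). For the 7499 bp before the seventh peak the share was 42.9% (41.8 to 44.1), so neither gap was unusual. Before the first peak 26665 bp were free, the fifth longest of 70 gaps in the local region, and 19.1% of arm gaps were as long or longer (18.2 to 20.0). The gaps of 327 and 395 bp beside the dominant peaks were short, since 85.9% and 83.2% of arm gaps were at least as long. All intervals given here cover counting error only and take peaks as independent, which clustered peaks are not.

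The right edge of the window cut close to a further peak. X 2049760 to 2050451, with a score of 457.67 and a width of 692 bp, had its midpoint 105 bp outside the bound and so was not a member, although it overlapped the window. Its score would have been the fourth highest and its width the fifth. Just inside that edge stood the weak seventh peak. On the left the nearest outside peak, X 1988349 to 1988838, scored 90.68 and lay 21407 bp from the bound, and just inside stood the first peak with 827.13.

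Of the 7 peaks 3 were strong, a share of 42.9% with a 95% Wilson interval of 15.8 to 75.0, beside 25.0% of arm peaks by construction and 25.8% of the 62 flank peaks. Broad peaks numbered 2 of 7, a share of 28.6% (8.22 to 64.1), beside 10.0% of arm peaks and 22.6% of flank peaks. The sixth peak, at 1689 bp, fell just short of the bound of 1699.6 bp, and no other bound for broad was tried. Each interval spans its backgrounds, but the 7 peaks are neighbours in the same list and not replicates. The intervals therefore cannot decide whether strong or broad peaks were in excess. With the bound raised to 861.66, that of the highest 10% of arm peaks, the window held 0 strong peaks. The median score in the window was 194.33, against 46.12 in the flanks and 72.26 on X, and the median width was 1210 bp, against 569.5 and 505 bp. The nearest 100 kb to the right had a higher median score than the window, 260.205 over 6 peaks. Those 6 include the peak of 457.67 at the right edge, which overlapped the window. The others scored 15.45, 34.57, 62.74, 502.86 and 647.72, so this higher median depended on the edge peak. The difference in median score between window and flanks, 148.2, became 411.2 with peaks under 500 bp apart joined and 283 with the peak at the right edge counted in.

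For their scores, the 4 highest-scoring peaks of the window were wide. The first was 1.69 times as wide as the median of 253 arm peaks with a score within 10% of its own, and 13.0% of those were wider (9.44 to 17.8). The fifth was 1.79 times as wide, the sixth 1.66 times and the fourth 1.96 times as wide as peaks of like score. The second and the third had ratios of 1.04 and 1.02, and the seventh 0.692, narrower than 87.9% of its like.

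Wide peaks for their score were also found nearby. Of the 17 flank peaks with a score of at least 194.33, 8 reached a ratio as high as the lowest of the 4 window peaks, 47.1% (26.2 to 69.0), with a median ratio of 1.5 against 1.74 in the window. Over the 2617 such arm peaks the share was 14.9% (13.6 to 16.4) and the median ratio 1.00. On X the share was 14.2% of 457 peaks. Peaks that were wide for their score were thus found in the window and in its surroundings alike. Both bounds came from the 4 window peaks, which reach them by construction, so these shares are a description and no test.

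**Figure D2:**
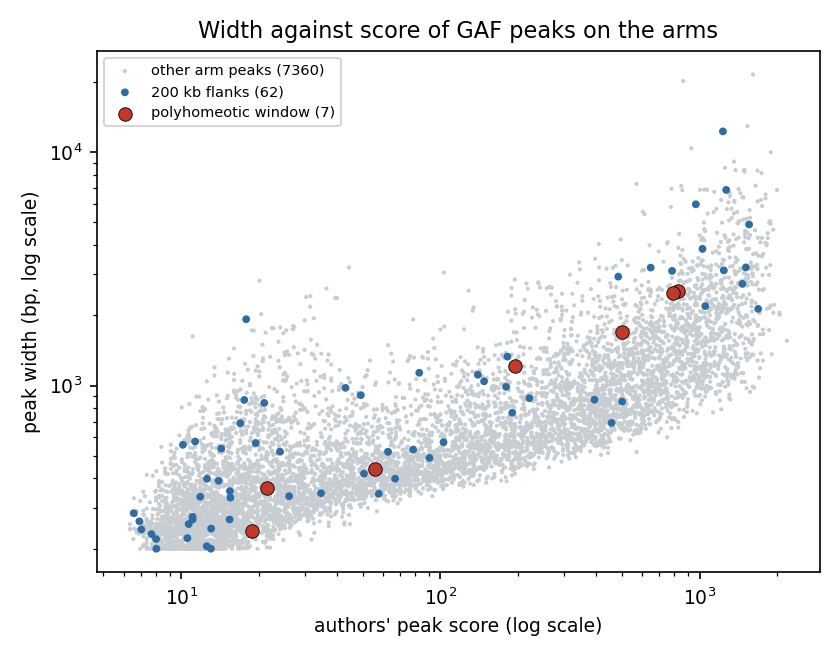
Peak width in bp against the authors' score, both on log scales, for arm peaks (grey), peaks of the 200 kb flanks (blue) and the 7 peaks of the polyhomeotic window (red). The 4 highest-scoring red points lie in the upper part of the cloud, 1.66 to 1.96 times above the median width at their score, while the point at 18.7 lies below it.

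The polyhomeotic peaks were not the strongest of their neighbourhood. Within the 440 kb of window and flanks the first peak ranked 11 of 69 by score and 12 by width, and the fifth ranked 12 and 13. Of the flank peaks 10 scored higher than any window peak, 6 on the left and 4 on the right. The highest, X 2210930 to 2213061, scored 1684.64 and lay 182.0 kb to the right of the window centre. The nearest of the 10, X 1976999 to 1980209, scored 1509.99 at 3211 bp and lay 51.4 kb to the left. The widest, X 1834568 to 1846851, measured 12284 bp and scored 1231.26.

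**Figure D3:**
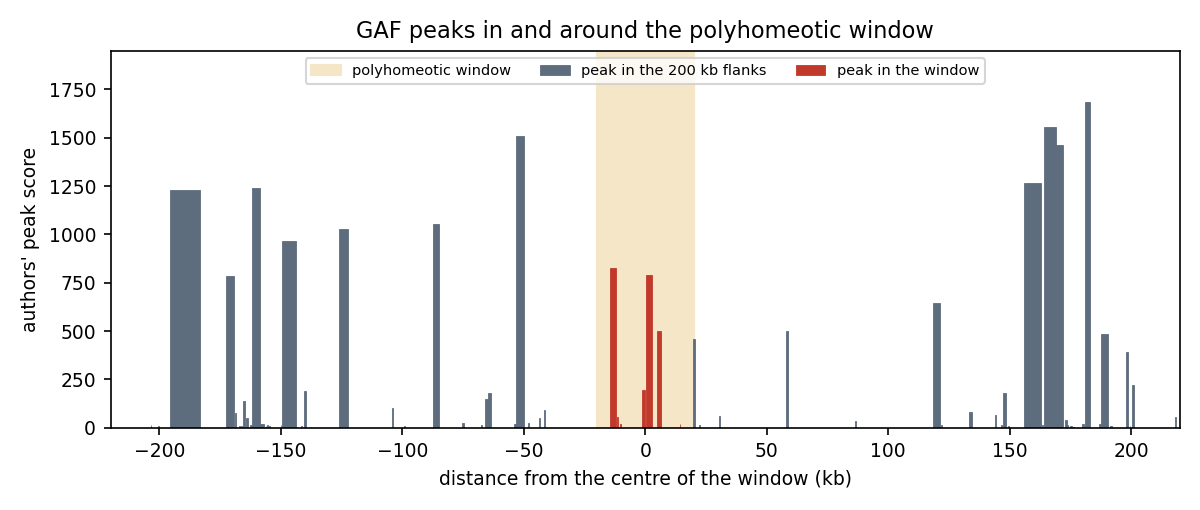
GAF peaks by distance from the centre of the polyhomeotic window in kb, with the authors' score as bar height, for the window (red, shaded) and 200 kb on each side (grey). The highest red bar, 827.13, stands below 10 grey bars, the nearest of them 51.4 kb from the centre. The 100 kb next to the window hold 12 peaks on the left and 6 on the right. The 100 kb beyond hold 21 and 23.

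Peak density in the window was 17.5 per 100 kb, close to the 15.5 of the flanks and above the 6.12 of X as a whole, a fold of 1.13 over the flanks. The flanks were uneven. Within 100 kb of the window lay 18 peaks, 12 to the left and 6 to the right, and 100 to 200 kb away lay 21 and 23. Against the nearer 100 kb on each side the fold was 1.94. The 6 peaks in the 100 kb to the right gave a density close to that of X, so the higher density did not hold along the whole right flank. Peaks covered 22.5% of the window, 24.1% of the left flank, 18.1% of the right flank and 4.77% of X.

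Set against 40 kb tiles laid end to end along the arms, the window belonged to the upper tail by several measures. Of 3010 tiles 7.41% held 7 or more peaks (6.53 to 8.40), and 4.98% reached its summed score of 2408.21 (4.26 to 5.82). The median tile held 2 peaks and a summed score of 316.465, and 691 tiles held no peak. Per kb the summed score was 60.2 in the window, 46.1 in the flanks and 16.6 over the arms, so the flanks were high as well. On X 6.26% of 559 tiles held as many peaks and 4.47% reached the summed score. The highest score in the window was less unusual, since 21.3% of the arm tiles held a peak as high or higher. The window was laid around known genes and the tiles were not, so these shares describe its place and test nothing.

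Pairs of high peaks were also counted in the same tiles. Tiles with at least 2 peaks at or above 788.99, the score of the fifth peak, made up 5.32% of the arm tiles. Of the 871 arm peaks at or above that score, 293 had another such peak within 14845.5 bp, 33.6% (30.6 to 36.8), and on X it was 48 of 140, 34.3% (26.9 to 42.5). The median distance to the nearest such peak was 28581.5 bp. These shares count any other peak of at least that score at that distance or nearer, whether or not the scores were alike. The first and the fifth peak, which set the bounds, are themselves counted in them.

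**Figure D4:**
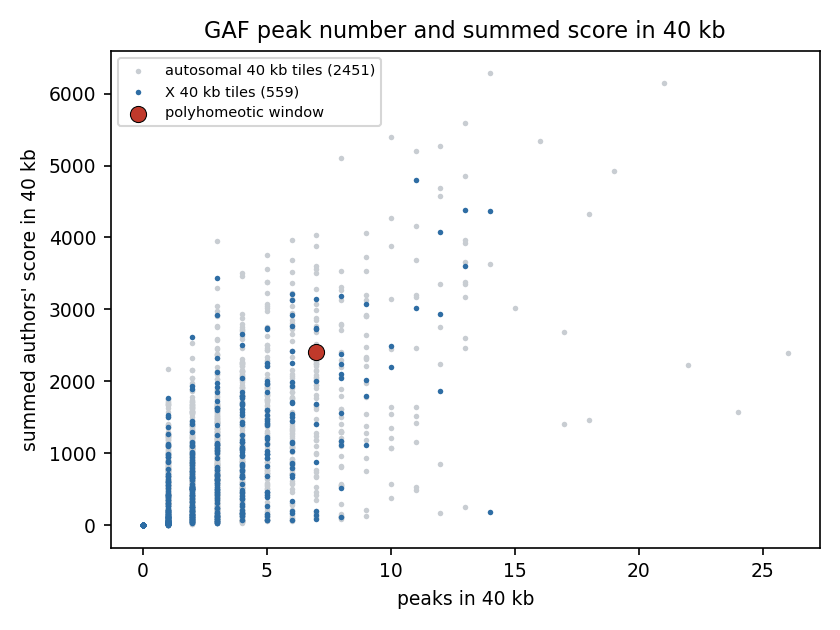
Number of GAF peaks and their summed score in 40 kb for 3010 tiles of the chromosome arms (grey, autosomes; blue, X) and for the polyhomeotic window (red). The window, at 7 peaks and 2408.21, lies above most tiles and within the range of other X tiles.

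The 3 tiles nearest to the window in the ranks of peak number and summed score each held 7 peaks and differed in how the score was divided. The nearest, 3L 21560001 to 21600000, had a summed score of 2407.68, with 1228.75 and 965.13 for its highest peaks, 13749 bp apart. The next, 2L 1640001 to 1680000, had 2340.42, with 1 high peak of 1073.11 and a second of 546.49. The third, 2R 5280001 to 5320000, had 2323.74, with 893.18 and 868.89 at 4879.5 bp. A pair of high peaks near-equal in score thus also occurred in the third of these, at a shorter distance than at the polyhomeotic genes. The widths of that pair, 2220 and 2751 bp, were less alike than the 2540 and 2501 bp of the polyhomeotic pair.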

How the data were processed

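The authors deposited 1 list of GAF peaks, each with its span and a score. The submitters' processing notes name MACS2, BWA and CASAVA (versions 1.7.0.2 and 1.7.0.3) with build BDGP5, and positions refer to FlyBase release 5 per the file headers. How the score is scaled, which threshold was applied and how the libraries entered the list is not stated there. Starts were listed from 0 and are printed counted from 1. Peaks belonged to the window by midpoint, and width is end minus listed start. Ranks count the peaks with a greater value. Tiles of 40 kb were counted from the start of each arm, leaving out those that overlap the window. Shares carry 95% Wilson intervals. All 7 members are named, with the nearest outside peaks, the next 5 genes on each side and the 3 nearest tiles. The members and lists were chosen with earlier results of these data known. The search for GAGAG in promoters, the comparison of the Ph proteins and the counts over 37 Polycomb and Trithorax group genes were planned, but no sequence or release 5 annotation was used here, so none was run. Computations ran in Python 3.11.15 with scipy 1.17.1, pandas 2.3.3 and numpy 2.4.6, and plots were drawn with matplotlib 3.10.9.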

Additional observations from a re-analysis of the deposited data

How the results depend on the processing

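Changing the settings gave 34 further values for the 9 results. Of these, 16 moved and 18 did not. Only the peak density and the median score had a direction, window against flanks. Both stayed higher in the window under each alternative tried. Some of the 18 could not have moved. Dropping peaks below the list's median score could not change the 3 strong peaks or the distance between the dominant peaks. Membership by overlap could not change the share of arm peaks as high. A share was taken as moved when it left the 95% interval of the reported share, and any other value when it changed by over 1.5 times. When peaks below the list's median score were dropped, the window held 4 peaks, and the shares of arm peaks as high or as wide became 21.21% and 8.351%, by construction. With peaks under 500 bp apart joined, these shares were 12.93% and 3.46%, the median score difference to the flanks was 411.2, and 9.236% of tiles held as many peaks. A joined peak took the highest score of its parts. The highest score of the window thus stayed the same, and the share of 12.93% moved only because joining shortened the list. With membership by overlap, which adds the peak at the right edge, the difference was 283, and 5.183% of tiles held as many peaks and 3.422% as high a summed score. Ranked among X peaks the shares were 9.257% and 3.499%, and among all listed peaks 7.368% and 2.869%. With 100 kb flanks the density fold was 1.944. With strong meaning the highest 10%, from 861.66, the window held 0 strong peaks, so its strong peaks lay below that bound. The GAGAG alternative was not run. No paired analysis was possible because ChIP and input libraries share replicate numbers but have no values of their own here, and for that reason no replicate could be left out. With unknown depth, no limit of detection can be given.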

Other observations

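Close agreement of both score and width between neighbouring high peaks was uncommon in the list. Among the 865 neighbouring pairs of arm peaks at or above 788.99, 2 were as alike in score and width as the first and the fifth polyhomeotic peak, 0.231% (95% Wilson interval 0.0634 to 0.839), and the polyhomeotic pair is 1 of those 2. This count was chosen after the values of the pair were seen and uses them as its bound, so it is a description and no test. The placing of reads between the tandem copies was not tested as a source of this likeness.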
